A study of Mus musculus with 2 samples.

Results

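The genes of DNA replication and S phase were followed as one module of 33 transcripts in LSK cells, the fraction of mouse bone marrow, without lineage markers and with Sca-1 and c-Kit, that holds the blood stem cells and their nearest progeny. The members were listed by function, with earlier results of these data known, and all 33 were found among the 31053 genes of the count matrix and were detected. They comprised 6 subunits of the MCM helicase, 5 factors that load or start it, 5 proteins that make DNA at the fork, 3 enzymes of nucleotide supply, 3 proteins of fork protection and the S phase checkpoint, 5 of DNA repair, 5 of chromatin assembly and maintenance, and the repressor E2f8. LSK cells of the strain C57BL/6JRj came from 4 mice aged 22 to 28 months, the old group, and from 4 mice aged 3 to 5 months, the young group, with no transgene or treatment named in the labels. The 4 mice of an age were sequenced as 1 CITE-seq library, a droplet method that counts, by unique molecular identifiers (UMIs), a cell's transcripts together with DNA tags on the antibodies it has bound. The study asked how stem cells change with age, with tags against CD150, CD48 and CLCA3A1. Each barcode ends in the suffix 1 or 2 for its library, and since the labels and the methods pair neither suffix with an age, the suffixes are described side by side and old cells are not compared with young ones.

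DNA replication begins at origins where the MCM complex is loaded in G1 as an inactive ring, with the help of Cdc6, and is turned into a running helicase in S phase when Cdc45 and the GINS proteins join it. Polymerase alpha with its primase starts each DNA strand, the sliding clamp PCNA holds the later polymerases in place, and ribonucleotide reductase and thymidylate synthase supply the building blocks. Many of these genes are switched on together at the entry into S phase by E2F transcription factors, and blood stem cells are known to divide rarely whereas CD48-positive progenitors cycle often.

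Cells were kept at over 1500 genes and under 10% of UMIs from mitochondrial genes, which left 1524 and 2544 cells in the suffixes, 4068 of 4688 in all, and no barcode occurred under both. Their depths were alike, with medians of 15023.5 and 14766.5 UMIs per cell. The LSK label was borne out by Kit, found in 84.6% and 82.4% of the cells, and by Ly6a, which encodes Sca-1, found in 86.9% and 94.5%. Markers of B and plasma cells summed to 47.1 to 2303 UMIs per 1000000 UMIs (CPM) over the gates described below, and the 3 highest values were in the gates that held the 12 cells with over 5% immunoglobulin UMIs. None of these 12 cells lay among the CD150-high CD48-low cells or among the cells rich in the module, and without them the module's ratio of CD150-high CD48-low to CD150-low CD48-high cells, the module-high shares of these 2 gates and the count of lowered members moved by less than 1.5 times. Of the 6 markers of T and NK cells, the summed level was 18.2 and 71.2 CPM in CD150-high CD48-low cells and 131 and 204 CPM in CD150-low CD48-high cells, and 150.1 and 243.5 CPM in cells rich in the module against 82.6 and 122 in the others. Nkg7 made up most of this in CD150-low CD48-high cells, at 129 and 202 CPM, and Klrb1c in CD150-high CD48-low cells of suffix 2, at 67.4 CPM, while the defining marker Cd3e was at 0 in every gate and Cd3g, Cd8a and Cd4 were at 0 to 1.42 CPM. The 6 erythroid markers summed to 26.2 to 212 CPM over the gates and the 8 of mature myeloid cells to 6.33 to 14.0 CPM. The part of these transcripts in the module's differences was not tested. With 1 library a suffix there is no replicate, so no test was run, and the 95% intervals in parentheses cover counting error only.

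Promoters of 4 of the 6 MCM subunits carry the letters for which the E2F family is known, and they are shown here because these subunits belong to the replicative helicase. The Mcm2 window had no match, and Mcm4 had no window. RefSeq gave a window from 250 bases before to 50 after the start for 27 of the 33 members (build GRCm38.p6). Windows were searched on both strands for the octamers TTTCCCGC, TTTGGCGC, TTTCGCGC and TTTGCCGC, whose matches may overlap each other. At least 1 was present for 10 of the 27 members (37.0%), for 16 of 50 other replication genes (32%), for 1 of 24 genes of G2 and mitosis (4.17%) and for 2.605% of all 27025 genes. The 4 members with more than 1 match were all MCM subunits. Their sequences are given in the sense of the gene, with the octamers in capitals, as the 250 bases before the start for Mcm6 (chr1:128359706-128359955, minus strand), Mcm5 (chr8:75109259-75109508, plus strand) and Mcm7 (chr5:138171884-138172133, minus strand), and as the stretch just after the start for Mcm3 (chr1:20820267-20820293, minus strand), whose matches both lie there.
Mcm6: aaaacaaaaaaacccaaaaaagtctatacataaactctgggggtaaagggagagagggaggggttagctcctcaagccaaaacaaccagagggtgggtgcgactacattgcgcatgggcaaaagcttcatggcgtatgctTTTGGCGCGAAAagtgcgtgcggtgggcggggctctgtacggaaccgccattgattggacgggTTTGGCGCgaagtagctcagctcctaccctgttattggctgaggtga
Mcm5: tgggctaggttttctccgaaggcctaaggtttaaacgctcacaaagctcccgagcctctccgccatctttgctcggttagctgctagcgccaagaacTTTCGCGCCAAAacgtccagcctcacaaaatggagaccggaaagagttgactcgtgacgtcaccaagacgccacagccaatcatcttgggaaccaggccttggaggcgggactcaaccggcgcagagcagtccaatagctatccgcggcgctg
Mcm7: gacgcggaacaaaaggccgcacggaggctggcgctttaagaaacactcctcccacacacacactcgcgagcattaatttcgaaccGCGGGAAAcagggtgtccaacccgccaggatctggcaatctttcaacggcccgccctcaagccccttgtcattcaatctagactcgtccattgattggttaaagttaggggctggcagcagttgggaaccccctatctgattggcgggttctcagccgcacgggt
Mcm3: GCGGGAAAacttgggaagtTTTGGCGC
In Mcm6 and in Mcm5 a pair of octamers on opposite strands overlapped by 4 letters, so the capitals run through both. The second match of Mcm7 lay 17 bases after the start and is not printed. The other members with a match were Dtl, Clspn, Cdc6, Uhrf1, Hells and Pola1. Other elements divided the lists differently. The hexamer TTTGAA, known as the CHR element of genes that act in G2 and mitosis, was in the windows of 18 of 24 genes of G2 and mitosis (75%), of 5 of 27 members (18.5%), of 8 of 50 other replication genes (16%) and of 20.2% of all genes, whereas CCAAT was in those of 21 of 27 members (77.8%), 20 of 24 genes of G2 and mitosis (83.3%), 22 of 50 other replication genes (44%) and 41.1% of all genes. A match is a string of letters and not a measured binding site.

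Cells were placed in 4 gates by their tags alone, with CD150 called high at or above the 75th percentile of the suffix and CD48 called low at or under the 25th. Of the kept cells, 3986 had tag values. The CD150-high CD48-low gate, in which blood stem cells are known to lie and which is called the SLAM gate here, held 172 cells of suffix 1 and 383 of suffix 2. Its transcripts followed the tags: Slamf1, which encodes CD150, was at 16.9 and 64.2 CPM there against 0.397 and 2.53 CPM in CD150-low CD48-high cells, and Cd48 was at 0.888 and 1.52 against 97.7 and 134 CPM.

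In both suffixes the replication module was lowest, or among the lowest, in the SLAM gate and high in CD150-low CD48-high progenitors. In suffix 1 the 33 members summed to 1248 CPM (1202 to 1295) in the SLAM gate, to 1220 (1178 to 1264) in CD150-low CD48-low cells, to 3086 (3036 to 3137) in CD150-high CD48-high cells and to 2940 (2915 to 2966) in CD150-low CD48-high cells. The first pair of gates had overlapping intervals, and both lay far under the second pair. In suffix 2 the order was a ladder without overlap, at 545 CPM (526 to 566) in the SLAM gate, 872 (839 to 907) in CD150-low CD48-low, 1327 (1293 to 1361) in CD150-high CD48-high and 2870 (2852 to 2889) in CD150-low CD48-high cells. The SLAM gate was therefore 2.36-fold lower than the CD150-low CD48-high gate in suffix 1 (ratio 0.424, 0.408 to 0.441) and 5.26-fold lower in suffix 2 (ratio 0.190, 0.183 to 0.197). The ladder of suffix 2 did not hold within bands of depth. From 10000 to 20000 UMIs, CD150-low CD48-low cells had 864 CPM and CD150-high CD48-high cells 629. At 20000 UMIs or more these gates had 3827, from 4 cells, and 2195 CPM. Under 10000 UMIs the SLAM gate had 520 CPM and CD150-low CD48-low cells 516.

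**Figure D1:**
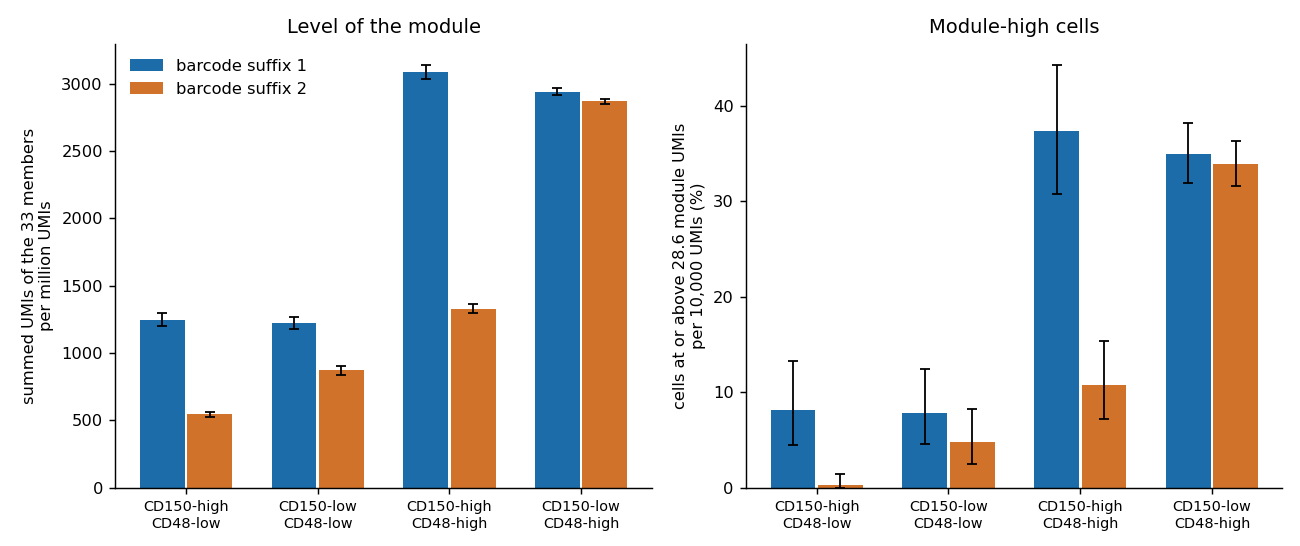
Left, summed UMIs of the 33 members per 1000000 UMIs in each tag gate; right, percent of cells at or above 28.6 module UMIs per 10,000. Bars are barcode suffixes 1 and 2, error bars are 95% counting intervals, and the CD48-low gates stand at 1248 CPM or less while CD150-low CD48-high cells stand at 2940 and 2870 CPM.

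Per cell, the module ran from 0 to 86.4 UMIs per 10,000 UMIs, with a long upper tail. The 10th percentile was 3.55, the median 8.42, the 75th percentile 28.6 and the 90th percentile 52.5, and 11 cells had no UMI of any member. Cells at or above the 75th percentile are called module-high. The threshold cut a thin part of the range, since 240 cells (5.90%) lay within 5 of it, and it marks a range of levels and not a cell type.

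With these gates, module-high cells were a smaller share of the SLAM gate than of CD150-low CD48-high progenitors. In suffix 1 they made up 14 of 172 SLAM cells (8.14%, 4.52 to 13.3), 16 of 204 CD150-low CD48-low cells (7.84%), 78 of 209 CD150-high CD48-high cells (37.3%) and 319 of 912 CD150-low CD48-high cells (35.0%, 31.9 to 38.2). In suffix 2 they made up 1 of 383 SLAM cells (0.261%, 0.00661 to 1.45), 12 of 250 CD150-low CD48-low cells (4.8%), 26 of 241 CD150-high CD48-high cells (10.8%) and 548 of 1615 CD150-low CD48-high cells (33.9%, 31.6 to 36.3). CD150-low CD48-high cells had like shares in both suffixes. The order of the suffixes in the SLAM gate depends on the tag cuts: with percentiles taken over both suffixes, the shares were 0 of 33 in suffix 1 (up to 10.6% by the exact interval) and 12 of 614 in suffix 2 (1.95%, 1.01 to 3.39), with intervals that overlap. The gates also differed in depth, with medians of 12917 and 13477 UMIs per SLAM cell against 16356 and 16320 in the CD150-low CD48-high gate. After each cell was thinned to 9000 UMIs, the shares in SLAM cells were 8.59% and 0.272% and those in CD150-low CD48-high cells were 35.8% and 33.5%. In suffix 1 the order of both gates turned under a stricter filter with gates cut anew, described below. There it was 35% of 20 SLAM cells (15.4 to 59.2) against 29.3% (20.6 to 39.3), with intervals that overlap.

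The bulk of cells below the threshold was shifted as well. With module-high cells left out, the SLAM gate still had 781 and 510 CPM of the module against 1133 and 1143 CPM in CD150-low CD48-high cells, which are ratios of 0.689 (0.653 to 0.726) and 0.446 (0.428 to 0.465). Part of such low counts can come from free RNA in the droplets, and that part was not tested. The SLAM cells below the threshold had a median of 6.47 and 4.72 module UMIs per 10,000 UMIs, compared with 8.06 and 7.79 in the CD150-low CD48-high gate.

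**Figure D2:**
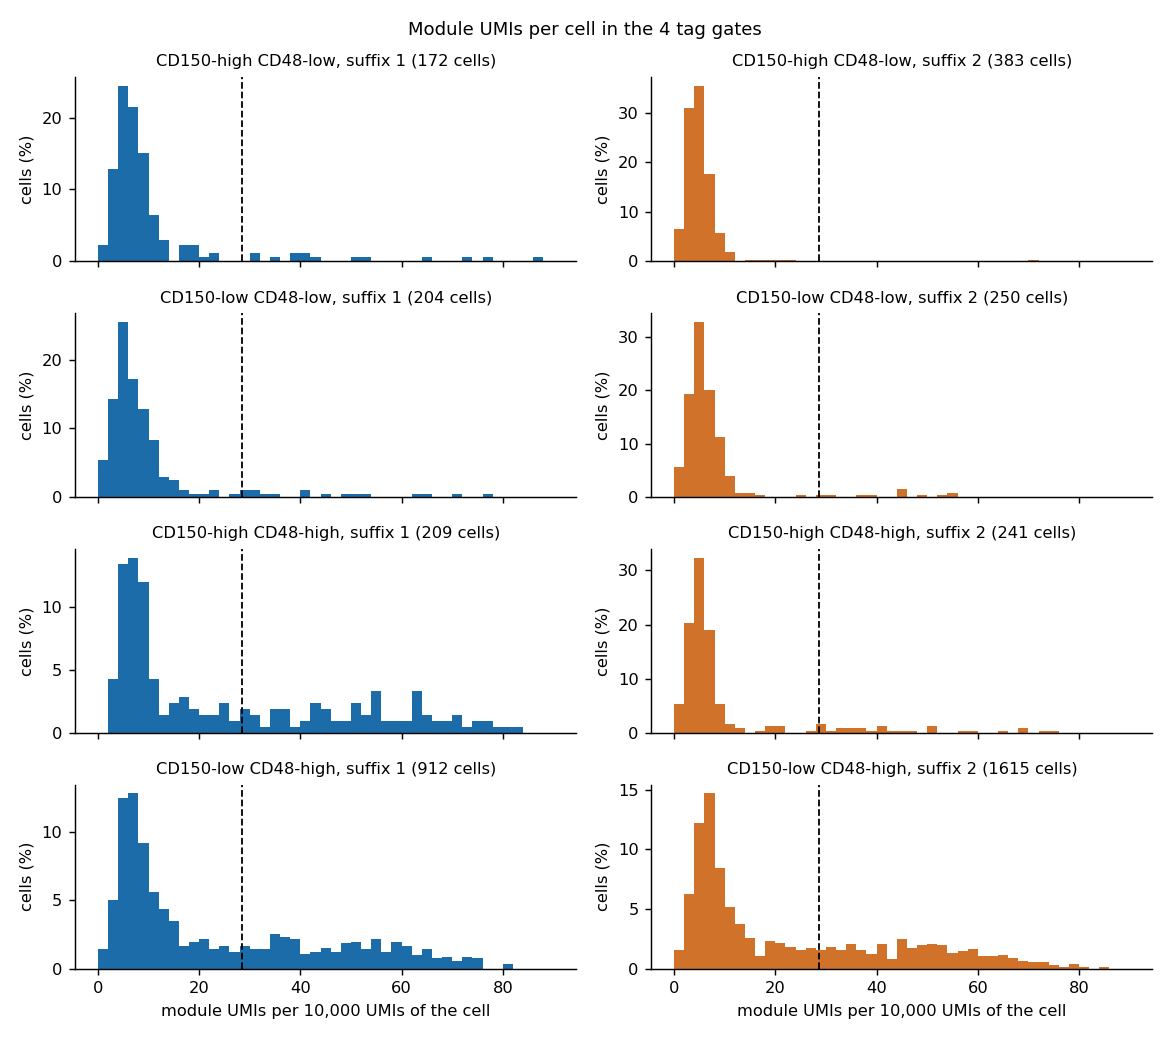
Histograms of module UMIs per 10,000 UMIs of the cell (x axis, bins of 2) as percent of the cells of each gate (y axis, its own scale in each panel), with suffix 1 on the left and suffix 2 on the right. The dashed line is the threshold of 28.6. All 8 panels peak under 10, and the tail beyond the line is broad in CD150-low CD48-high cells and holds 14 and 1 cells in the SLAM gate.

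Depth and the module moved together. Module-high cells had medians of 24825 and 24087.5 UMIs against 13604 and 13576.5 in the other cells. Among cells of 10000 to 20000 UMIs only, 8 of 131 SLAM cells of suffix 1 (6.11%) and 71 of 520 CD150-low CD48-high cells (13.7%) were module-high, and in suffix 2 these were 0 of 327, which by the exact interval allows a share of up to 1.12%, and 124 of 938 (13.2%). Under 10000 UMIs they were 3 of 34 (8.82%) and 5 of 57 (8.77%) in suffix 1, and 0 of 43 and 11 of 102 (10.8%) in suffix 2. At 20000 UMIs or more they were 3 of 7 (42.9%) and 243 of 335 (72.5%) in suffix 1, and 1 of 13 (7.69%) and 413 of 575 (71.8%) in suffix 2. The ratio of the gates among cells of 10000 to 20000 UMIs was 0.656 (0.624 to 0.689) and 0.341 (0.326 to 0.356), closer to 1 by over 1.5 times in each suffix. Among cells under 10000 UMIs it was 1.11 (0.947 to 1.29) in suffix 1, from 34 SLAM and 57 CD150-low CD48-high cells, and 0.547 (0.464 to 0.641) in suffix 2, from 43 and 102. Among cells of 20000 UMIs or more it was 1.07 (0.995 to 1.15) in suffix 1, where the gate held 7 SLAM cells against 335, and 0.296 (0.268 to 0.327) in suffix 2, with 13 against 575. Depth still differed within the bands. Under 10000 UMIs the SLAM cells were the deeper ones, with medians of 9089 against 8767 and 9079 against 8783 UMIs. In the other bands they were the shallower ones. Medians were 13560 against 14148.5 and 13713 against 14078 UMIs in the middle band, and 23258 against 27454 and 25354 against 26765 in the deepest. The module was thus lower in SLAM cells in each of the 3 bands in suffix 2, and in suffix 1 in the middle band alone, the other bands having intervals that include 1. The share of the gap that depth carries was not tested. A stricter filter, over 2500 genes and under 5% mitochondrial UMIs, kept 372 cells, and the tag percentiles were taken anew on these. CD48 was then cut at 405 and 132 tags and CD150 at 24 and 39.7, so the gates were not those above. The SLAM gate held 20 cells in suffix 1, and the ratio was 1.02 (0.964 to 1.08) in suffix 1 and 0.411 in suffix 2. With the first tag cuts kept, the ratio was 0.820 (0.754 to 0.891) and 0.436 (0.383 to 0.493), from 12 and 11 SLAM cells.

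Gene by gene, 32 members were lower in SLAM cells than in CD150-low CD48-high cells in suffix 1 and all 33 in suffix 2. At least 2-fold lower in suffix 1 and also in suffix 2 were 26 of the 33 members, against 5.85% of the 11922 genes with at least 20 UMIs over both gates in each suffix. The members' median ratio was 0.391 in suffix 1 and 0.162 in suffix 2, where the median of all genes tested was 0.991 and 0.959. None of the 33 was at least 2-fold higher, compared with 5.16% of all genes. The 7 members that missed the 2-fold limit were Mcm3, Pola1, Dtl, Blm, Usp1, Chaf1b and Slbp, and of these only Chaf1b missed it in suffix 2. The count of 26 was 25 after cells were thinned to 9000 UMIs, where 4.54% of all genes were at least 2-fold lower. It moved with the tag cuts and the cells kept. It was 7 with both tags split at the median (3.44% of all genes), 1 with a centred log ratio of the tags (2.81%) and 30 with percentiles taken over both suffixes (7.55%). With fewer cells, it was 0 of the 13 members with enough UMIs in cells under 10000 UMIs (1.67% of all genes), and of all 33 members 6 in cells of 10000 to 20000 (3.24%) and 2 in deeper cells (5.77%). Under the stricter filter it was 0 (2.26%), and 3 with that filter at the first tag cuts (4.54%).

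The MCM subunits, which form the ring-shaped replicative helicase, summed to 420 CPM in SLAM cells and 971 CPM in CD150-low CD48-high cells of suffix 1, and to 175 and 931 CPM in suffix 2. Mcm6 (chr1:128331590-128359664), the member with the most UMIs (13779, or 7.97% of the module), was at 96.8 against 237 CPM in suffix 1 and at 49.0 against 228 CPM in suffix 2. Mcm5 had the lowest ratios of the ring, 0.357 and 0.087, and Mcm3 (0.508) and Mcm4 (0.251) the highest, one in each suffix. All 6 subunits were lower in the SLAM gate in both suffixes, but not by one common factor.

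As a sum, the factors that load or start the helicase had lower ratios than the summed MCM ring (0.432 and 0.188). Their sum was 48.4 against 153 CPM in suffix 1 (ratio 0.316) and 19.4 against 149 CPM in suffix 2 (ratio 0.130). Not every factor did, since Cdc6 had ratios of 0.399 and 0.191, above those of Mcm5 at 0.357 and 0.087. Cdc6, which loads the MCM ring on DNA, was at 9.77 against 24.5 CPM in suffix 1 and at 4.75 against 24.8 in suffix 2. Cdc45, a part of the running helicase, was at 11.1 against 33.8 and at 3.23 against 32.6 CPM. Gins1 and Gins2, subunits of the GINS complex, had ratios of 0.296 and 0.332 in suffix 1 and of 0.0763 and 0.183 in suffix 2. These genes were thus low in both CD48-low gates and not in the SLAM gate alone, with 59.0 and 30.2 CPM summed in CD150-low CD48-low cells.

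Proteins that make DNA at the fork had milder ratios, 0.452 and 0.241 for their sum. Pcna, the sliding clamp, was at 38.6 against 79.6 CPM in suffix 1 and at 25.4 against 85.7 CPM in suffix 2. Pola1, the catalytic subunit of polymerase alpha, was at 25.3 against 48.7 and at 12.5 against 46.1 CPM, and Prim1, the primase subunit that lays the RNA primer, at 25.8 against 70.4 and at 9.68 against 71.4 CPM. Fen1, the nuclease that trims Okazaki fragments, and Rpa2, a subunit of the single-strand binding protein RPA, had ratios of 0.415 and 0.481 in suffix 1 and of 0.211 and 0.278 in suffix 2. Of these 5, Prim1 had the lowest ratios in both suffixes. Nucleotide supply was lower still: Rrm1, Rrm2 and Tyms summed to 102 against 325 CPM in suffix 1 (ratio 0.313) and to 37.2 against 345 CPM in suffix 2 (ratio 0.108).

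Among the proteins of fork protection and the checkpoint, Clspn, the adaptor that lets ATR activate Chk1, was at 13.3 against 45.2 CPM in suffix 1 and at 4.37 against 43.4 in suffix 2. Tipin, a partner of Timeless at the fork, had ratios of 0.386 and 0.1999, and Dtl, the part of a ubiquitin ligase that degrades licensing factors on chromatin, had 0.553 and 0.179. Of the repair proteins, Ung, which removes uracil from DNA, had ratios of 0.307 and 0.0649, Exo1, an exonuclease, 0.391 and 0.152, Usp1, a deubiquitinase of the Fanconi anaemia pathway and of PCNA, 0.502 and 0.249, and Blm, a RecQ helicase, 0.552 and 0.355. Ung was thus among the most lowered members and Blm among the least. In the chromatin group, Nasp, a histone chaperone, was at 60.4 against 150 and at 23.9 against 148 CPM, and Slbp, the protein that binds the stem-loop of histone transcripts, at 86.6 against 169 and at 45.9 against 157 CPM. Hells, a chromatin remodeller needed for DNA methylation, was at 29.7 against 72.8 and at 6.08 against 64.7 CPM.

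The 5 members with the lowest ratio over both suffixes were E2f8, Rrm2, Mcm10, Rad51ap1 and Uhrf1. E2f8 (chr7:48866429-48881596), an atypical E2F that represses transcription, had 11 UMIs in SLAM cells of suffix 1 and 1 in those of suffix 2, with ratios of 0.237 (0.117 to 0.429) and 0.00822 (0.000208 to 0.046). Rrm2 (chr12:24708241-24714146), the small subunit of ribonucleotide reductase, was at 12.0 against 64.1 CPM in suffix 1 and at 3.61 against 70.2 CPM in suffix 2, with ratios of 0.187 (0.123 to 0.274) and 0.0514 (0.0309 to 0.0805). Mcm10 (chr2:4989714-5012791), a factor of helicase activation, was at 4.44 against 23.0 and at 0.949 against 21.2 CPM. With the UMIs of both suffixes summed, E2f8, Rrm2 and Mcm10 were all at least 10.9-fold lower. In suffix 1 alone they were 4.23-fold, 5.34-fold and 5.18-fold lower, and Mcm10 rested on 10 and 5 UMIs in SLAM cells. Rad51ap1 (chr6:126923050-126939587), a DNA repair protein, was at 10.2 against 37.0 and at 1.52 against 36.02 CPM. Uhrf1 (chr17:56303321-56323486), which brings the maintenance DNA methyltransferase to newly copied DNA, was at 21.8 against 78.6 and at 3.797 against 72.1 CPM.

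At the other end stood Chaf1b, Blm, Slbp, Pcna and Pola1, with ratios over both suffixes of 0.759, 0.416, 0.360, 0.352 and 0.348. Within suffix 1 the 5 highest were Chaf1b, Dtl (0.553), Blm (0.552), Pola1 (0.520) and Slbp (0.512), with Pcna at 0.485, so below Chaf1b the order is not the same in each suffix. Chaf1b (chr16:93883901-93906115), a subunit of the chromatin assembly factor CAF-1 that places histones on new DNA, was the exception of the module. It was at 67.5 CPM in SLAM cells and 67.3 CPM in CD150-low CD48-high cells of suffix 1 (ratio 1.002, 0.841 to 1.19) and at 47.8 and 72.7 CPM in suffix 2 (ratio 0.658, 0.575 to 0.750). Its share of the module's UMIs was accordingly 5.41% in SLAM cells of suffix 1 and 8.77% in those of suffix 2, against 2.29% and 2.53% in the CD150-low CD48-high gate. The annotation lists no other gene of the matrix over its locus.

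**Figure D3:**
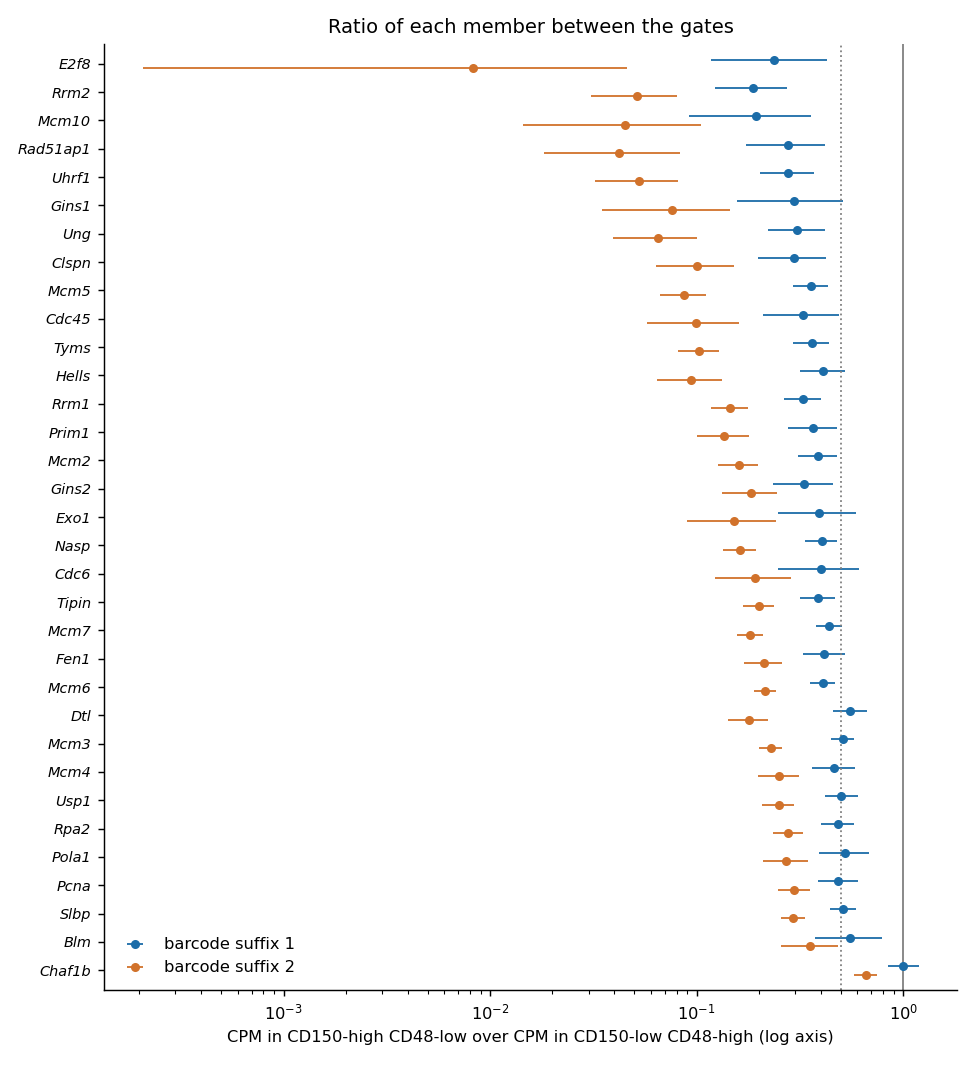
Ratio of the CPM in CD150-high CD48-low cells to that in CD150-low CD48-high cells (log x axis) for the 33 members, ordered by the ratio over both suffixes, with 95% counting intervals per suffix. The solid line marks 1 and the dotted line 2-fold lower; every point of suffix 2 lies left of its point of suffix 1, and Chaf1b in suffix 1 sits on the line at 1.

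Some counts are less certain than their intervals. The annotation holds pseudogenes of Nasp, Tyms and Pcna that could share reads with them. Mcm7, Cdc45, Gins2 and Fen1 overlap genes on the other strand, and whether the counting used strand is not given in the sources used here.

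Other genes of replication followed the module less evenly. Of 60 listed genes, 27 were at least 2-fold lower in the SLAM gate in both suffixes, with a median ratio of 0.509 and 0.298. The same fold was reached by 5.85% of all genes tested. The lowest ratios over both suffixes were those of Tk1 (0.0761), the thymidine kinase of cycling cells, Dscc1 (0.108), a clamp loader subunit, and E2f2 (0.113), an E2F activator. The highest were those of Pold4 (1.35), a small subunit of polymerase delta, and of the origin recognition subunits Orc5 (0.949) and Orc4 (0.935). Pold4 was at 1.11 (0.962 to 1.27) in suffix 1, an interval that includes 1, and at 1.502 (1.37 to 1.64) in suffix 2. The order is not the same in each suffix: Dscc1 was at 0.320 in suffix 1 and 0.0237 in suffix 2, and Orc5 at 1.14 and 0.867. Of 27 genes of G2 and mitosis, 25 were at least 2-fold lower in both suffixes (medians 0.269 and 0.0290). A list of 9 genes of G1 control held the CDK inhibitors Cdkn1a, Cdkn1b, Cdkn1c, Cdkn2c and Cdkn2d. Its other genes were the cyclins Ccnd1, Ccnd2 and Ccnd3 and the kinase Cdk6. Of these 9, Cdk6 was the 1 that was at least 2-fold lower in both suffixes. Cdkn1c, which encodes the inhibitor p57, was the 1 that was at least 2-fold higher, against 5.16% of all genes. With 9 genes, a count of 1 is no result about the list.

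The remaining gates ordered the members in other ways. In CD150-low CD48-low cells, 30 of the 33 members were at least 2-fold lower than in CD150-low CD48-high cells in both suffixes, against 4.11% of all genes, and Cdc6, Dtl and Chaf1b were the exceptions. This gate was the shallowest, with medians of 11943 and 11203 UMIs per cell. Its ratio for the summed module was 0.415 and 0.304 over all cells. Among cells of 10000 to 20000 UMIs the ratio was 0.691 (0.659 to 0.726) and 0.590 (0.562 to 0.619), which is less than 2-fold lower. CD150-high CD48-high cells had 0 members at least 2-fold lower in both suffixes, where 1.84% of all genes were. The suffixes parted there: the median member ratio to the CD150-low CD48-high gate was 1.03 in suffix 1 and 0.450 in suffix 2.

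Between the suffixes, the module differed most in the CD150-high gates where the tags were cut within each suffix, and not where they were cut alike. With the cuts of each suffix, the ratio of suffix 2 to suffix 1 was 0.437 (0.415 to 0.461) in the SLAM gate, 0.715 (0.678 to 0.754) in CD150-low CD48-low cells, 0.430 (0.417 to 0.443) in CD150-high CD48-high cells and 0.976 (0.966 to 0.987) in CD150-low CD48-high cells. In the SLAM gate all 33 members were lower in suffix 2, and 22 of the 31 members with at least 20 UMIs were at least 2-fold lower, against 4% of all genes. In CD150-high CD48-high cells 29 of 33 were, against 5.21% of all genes. In the CD150-low CD48-high gate the member ratios ran from 0.825 to 1.15 with a median of 0.964. Library, age and the tag cuts cannot be told apart in these ratios, because the cut for CD48 fell at 224 tags in suffix 1 and at 42 in suffix 2, and that for CD150 at 40 and at 407. With the percentiles taken over both suffixes, the ratio of suffix 2 to suffix 1 was 0.904 (0.803 to 1.02) in the SLAM gate, 0.608 (0.556 to 0.665) in CD150-low CD48-low cells, 0.914 (0.885 to 0.945) in CD150-high CD48-high cells and 1.10 (1.09 to 1.11) in CD150-low CD48-high cells. The SLAM gate then held 33 cells of suffix 1 and 614 of suffix 2, and the ratio of the SLAM gate to CD150-low CD48-high cells was 0.265 (0.235 to 0.297) in suffix 1 and 0.217 (0.211 to 0.223) in suffix 2.

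The module was higher at every step along the CD48 tag. Over 5 bins of cells ordered by CD48 tags, it went from 1213 to 1847, 2285, 2961 and 3797 CPM in suffix 1 and from 578 to 1186, 1741, 2838 and 3687 CPM in suffix 2. The share of module-high cells went from 7.97% to 59.3% and from 1.19% to 57.8%, while the median depth went from 12244 to 26416 and from 12335 to 25360.5 UMIs. CD150 gave no such line: in suffix 1 the bins had 2573, 2660, 2718, 3060 and 2317 CPM, and in suffix 2 they had 2773, 3056, 2857, 1632 and 784 CPM. Lower levels were thus limited to the top bin in suffix 1 and covered the upper 2 bins in suffix 2. CLCA3A1 tags, the surface protein that the study used to divide stem cells, left the module between 2428 and 2748 CPM in suffix 1, and in suffix 2 it went from 2880 and 3029 to 2530, 1794 and 989 CPM. Inside the SLAM gate, cells above the median CLCA3A1 tag had 1163 CPM (1103 to 1227) and the others 1340 (1271 to 1411) in suffix 1, and 588 (560 to 617) and 498 (470 to 526) in suffix 2. These values rest on the 14 and 1 module-high cells of the gate: without them the levels were 816 and 740 CPM in suffix 1, a ratio of 1.10 (0.997 to 1.22), and 521 and 498 CPM in suffix 2, a ratio of 1.05 (0.970 to 1.13), and both intervals include 1.

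**Figure D4:**
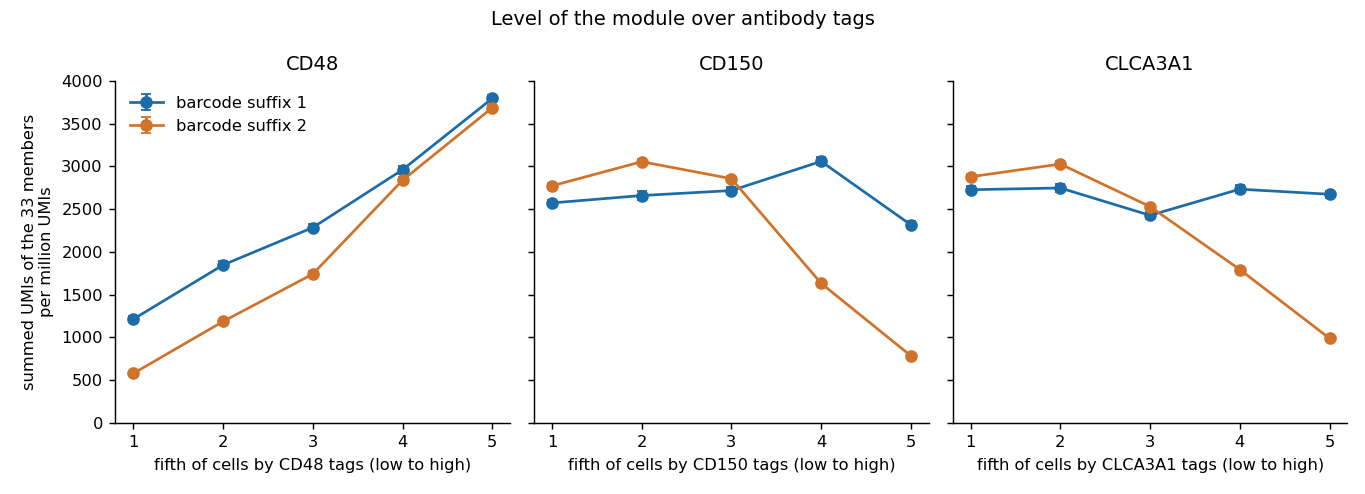
Summed UMIs of the 33 members per 1000000 UMIs (y axis) in 5 bins of cells ordered by CD48, CD150 or CLCA3A1 tags (x axis), per barcode suffix with 95% counting intervals. The CD48 lines climb from 1213 to 3797 and from 578 to 3687 CPM, whereas the CD150 and CLCA3A1 lines are lower in the upper bins of suffix 2.

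Within cells the members were high together. To see this without a gene ranking its own cells, each member was compared between cells at or above the 75th percentile of the other 32 members and the remaining cells. At least 2-fold higher levels in both suffixes were found for 32 of 33 members, against 3.89% of 12338 genes for cells ranked by the whole module, and Chaf1b (1.91-fold, 1.80 to 2.02, over both suffixes) was the 1 below. Rrm2 had the largest fold, 25.1 (22.0 to 28.6), with 130 against 5.81 CPM in suffix 1 and 144 against 5.34 CPM in suffix 2. Uhrf1 (13.1-fold), Mcm10 (11.8-fold) and Rad51ap1 (10.8-fold) followed, all among the 5 lowest in SLAM cells. Over both suffixes, Usp1 (3.36-fold) and Blm (3.8-fold) were the lowest after Chaf1b, though in suffix 1 Blm (3.98-fold) lay above Mcm6 (3.52-fold). Other replication genes passed in 47 of 60 cases, genes of G2 and mitosis in 11 of 27, and genes of the G1 control list in 1 of 9, which was Cdkn1a. Both groups of cells differ in depth as given above.

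Most module-high cells were also high in the summed genes of G2 and mitosis. Cells at or above the 75th percentile of the 27 genes of that list (3.94 UMIs per 10,000) made up 68.9% (64.2 to 73.2) of module-high cells in suffix 1 and 70.2% (66.3 to 73.8) in suffix 2, against 12.3% and 8.90% of the other cells. The 27 genes did not move as one: 17 were higher in module-high cells with intervals above 1 in both suffixes, among them Top2a (3.16-fold and 3.90-fold), a topoisomerase, and Mki67 (2.50-fold and 2.88-fold), and 6 had no such interval in both. The other 4 were lower in both, namely Cenpa (ratios of 0.372 and 0.591), the histone of the centromere, Ube2c (0.415 and 0.548), which acts in mitotic protein breakdown, and the mitotic cyclins Ccnb1 (0.429 and 0.690) and Ccnb2 (0.588 and 0.863). Of the module-high cells, those with few of these transcripts were 98 of 319 and 158 of 548 among CD150-low CD48-high cells and 17 of 78 and 7 of 26 among CD150-high CD48-high cells. Among CD150-low CD48-low cells they were 9 of 16 and 10 of 12, and in the SLAM gate 9 of 14 in suffix 1 and 0 of 1 in suffix 2.

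The members separated along this second axis. Within cells high in the other 32 members, 10 members were at least 2-fold higher in both suffixes where the G2 and mitosis genes were also high. Over all 10911 genes with at least 20 UMIs in each suffix, 2.41% were, in cells high in the whole module. Rrm2 (16.4-fold in suffix 1 and 9.09-fold in suffix 2) and E2f8 (15.6-fold and 6.91-fold) were far in front, followed by Clspn (4.63 and 3.45), Rad51ap1 (3.66 and 3.74), Mcm10 (2.51 and 3.66) and Tyms (2.99 and 3.02). E2f8 went from 3.32 to 51.7 CPM in suffix 1 and from 7.43 to 51.4 CPM in suffix 2. The opposite held for Ung, at ratios of 0.814 (0.721 to 0.921) and 0.695 (0.627 to 0.772), and for Mcm6, at 0.914 (0.851 to 0.982) and 0.858 (0.808 to 0.911). Mcm2, Mcm3 and Mcm4 were also under 1 in both suffixes, each with an interval that reached 1 in 1 of them. The MCM subunits were not of one kind, since Mcm7 was above 1 in both suffixes, at 1.11 (1.02 to 1.20) and 1.09 (1.02 to 1.17), and Mcm5 was at 1.02 (0.934 to 1.12) and 1.12 (1.03 to 1.21). Chaf1b was level, at 1.06 and 0.969.

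**Figure D5:**
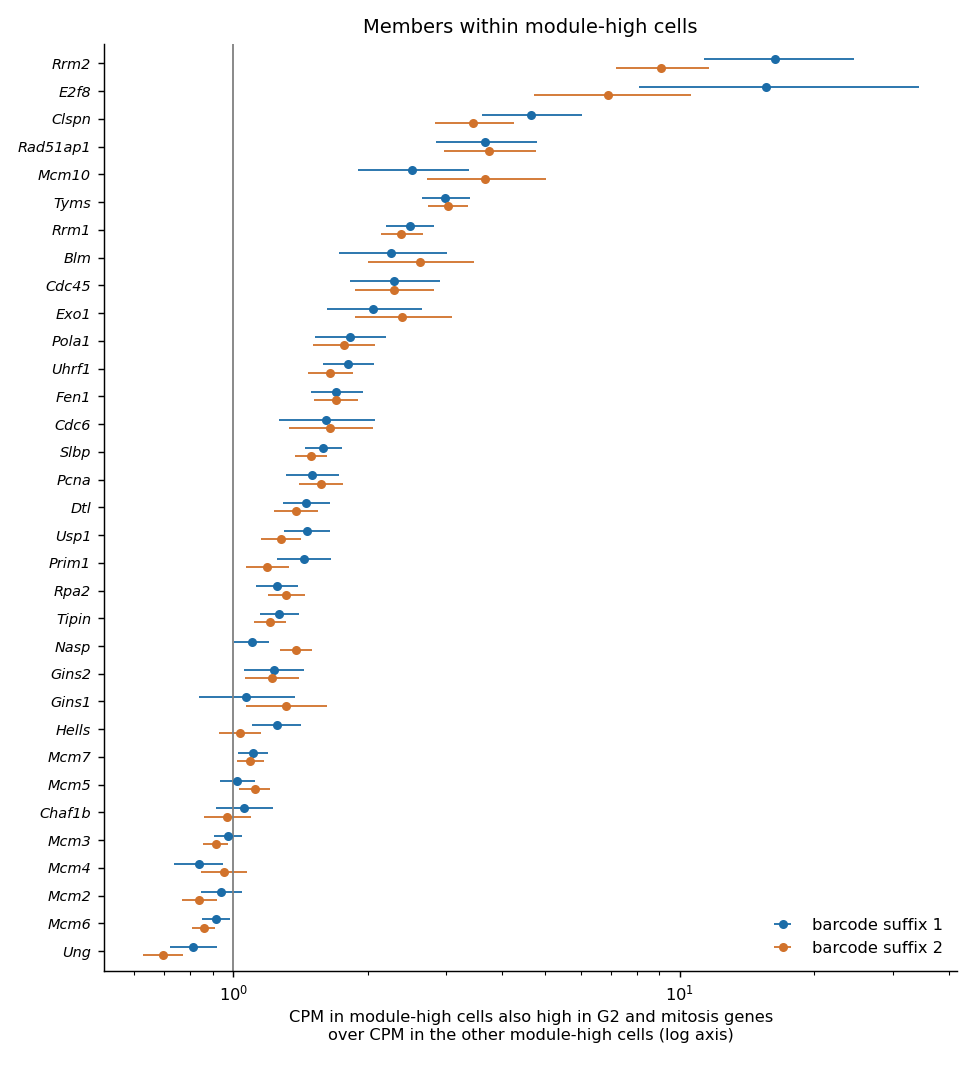
For each member, the CPM in module-high cells that are also high in G2 and mitosis genes divided by the CPM in the other module-high cells (log x axis), with 95% counting intervals per suffix. Cells were ranked by the other 32 members; Rrm2 and E2f8 lie at 6.91 or more and Ung and Mcm6 under 1 in both suffixes.

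Of the 10 genes most like the module over cells, 5 were on the list of other replication genes: Lig1, Dut, Gmnn, Tk1 and Cdt1. Over 10613 genes, the highest Pearson correlations of log levels with the summed module, by the lower of both suffixes, were those of Lig1 (0.791 and 0.782), the ligase that joins Okazaki fragments, Dut (0.790 and 0.781), which keeps uracil out of DNA, and Gmnn (0.766 and 0.747), the inhibitor of licensing. Stmn1, Ptma, H2afz, Tuba1b, Ran, Tk1 and Cdt1 completed the first 10, down to 0.682 and 0.684 for Cdt1. Among the members themselves, the correlation with the sum of the others was highest for Mcm5 (0.808 and 0.805) and lowest for Chaf1b (0.302 and 0.289). These values describe the 1524 and 2544 cells of each library, which share depth and normalization, and are no test.

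The few module-high cells of the SLAM gate sat near its CD48 border. In suffix 1, the 14 such cells had a median of 172 CD48 tags, where the cut was 224, against 104 tags in the other 158 SLAM cells, and 101 against 221 CD150 tags. Procr, which marks stem cells, was at 49.4 against 122 CPM (ratio 0.406, 0.2002 to 0.740, from 11 UMIs), Hlf at 247 against 453 CPM (0.546, 0.408 to 0.717) and Cd34 at 315 against 189 CPM (1.66, 1.27 to 2.15). Slamf1 and Cd48 were at 1 UMI each in the 14 cells, with intervals of the ratio that include 1. The intervals also include 1 for Mecom (ratio 0.799, 0.492 to 1.24), Flt3 (1.40, 0.356 to 4.04) and Cdkn1c (0.528, 0.208 to 1.12). Mki67 was at 85.4 against 32.5 CPM (2.63, 1.49 to 4.43). In suffix 2 the single module-high SLAM cell had 42 CD48 tags, exactly at the cut, and 70.3 module UMIs per 10,000. It had 1064 CD150 tags against a median of 775 in the other SLAM cells, 0 UMIs of Procr where the others had 247 CPM, and 2 UMIs each of Hlf, Slamf1 and Cd34, where the intervals of the ratio include 1 for Slamf1 and Cd34 and lie under 1 for Hlf. With these cuts 14 of the 15 module-high cells of the SLAM gate came from suffix 1, and with percentiles over both suffixes all 12 came from suffix 2.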

How the data were processed

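LSK cells of both ages were profiled by CITE-seq with the Chromium 3′ kit v3, 1 library per age. The authors deposited 1 matrix of UMI counts per gene and cell, made with Cell Ranger 3.1.0 on mm10 (GRCm38) per the submitters' processing notes and combined by its aggregation step, which by the methods normalized the libraries, so depth before it is not known. No cell filter had been applied. The authors deposited antibody tags, counted with CITE-seq-Count, as log10 values treated as a score for ranking cells: 10 to the power of 100% of the finite values was whole to within 1e-06, and a tag count of 0 was placed below all others. No column of per-sample values was left unmatched (0).

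Members and lists were chosen with earlier results of these data known. All members were named, in full the 5 lowest and the 5 highest gate ratios, any member higher in the SLAM gate, and the highest and lowest folds between cells ranked by the other members; of other genes, the 10 with the highest correlation and the 3 highest and lowest ratios of the other replication genes. Module-high SLAM cells and the transcripts named in them were chosen for description after values were seen.

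CPM are a group's UMIs of a gene per 1000000 of its UMIs. Intervals are exact Poisson for sums, exact conditional binomial for ratios and Clopper-Pearson for shares, at 95%, for counting error only. Python 3.11.15, numpy 2.4.6, scipy 1.17.1, pandas 2.3.3 and scanpy 1.11.5 were used. Scrublet at an expected rate of 0.06 called 5 and 32 cells as doublets, of which 3 and 12 were module-high, and they were kept. Thinning to 9000 UMIs left out 243 shallower cells. The fold comparison was tested on simulated data. Alternatives covered the cell filter, doublets, tag cuts, depth, threshold, fold and low counts. The alternatives without immunoglobulin-rich cells, within one band of depth, and with the strict filter at the first tag cuts were added after seeing the data.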

Additional observations from a re-analysis of the deposited data

Results flagged for a closer look

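Inside the SLAM gate the module's ratio by CLCA3A1 tag lay on opposite sides of 1 in the suffixes, and this rests on few cells. Cells above the median tag had 0.868 times (0.806 to 0.936) the module level of the other SLAM cells in suffix 1 and 1.18 times (1.10 to 1.27) in suffix 2. The difference between the suffixes was not tested, since each is 1 library, and the intervals cover counting error only. Of the 14 module-high SLAM cells of suffix 1, 4 were above the median tag, and the 1 of suffix 2 was above it. Without these cells the ratios were 1.10 (0.997 to 1.22) and 1.05 (0.970 to 1.13), on the same side of 1 with intervals that include 1.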

How the results depend on the processing

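Of 94 recomputed values, 38 stayed within the counting interval of the first value, or within 1.5 times for counts of members. A further 51 moved, and 5 turned, which means that the ratio crossed 1. Of these 5, only the ratio of suffix 2 to suffix 1 in CD150-low CD48-high cells had an interval without 1 (1.09 to 1.11). The other ratios that turned have intervals that include 1, so they show no clear difference in either direction. The gate ratio of suffix 1 turned under the stricter filter, to 1.02, where it was 0.411 in suffix 2, with module-high shares of 35% and 5.41% in the SLAM gate and 29.3% and 28.8% in the CD150-low CD48-high gate, and 0 members at least 2-fold lower. The gates were cut anew there, on 372 cells. With the first tag cuts kept, the same cells gave ratios of 0.820 and 0.436 and 3 members. The cause was not tested. By depth, the ratio of suffix 1 turned to 1.11 in cells under 10000 UMIs and to 1.07 in cells of 20000 or more, where suffix 2 had 0.547 and 0.296, with 0 and 2 members. Cells of 10000 to 20000 UMIs gave 0.656 and 0.341 and 6 members. Another that turned was the ratio by CLCA3A1 tag in SLAM cells of suffix 1, 1.10 without module-high cells, and in suffix 2 it moved to 1.05. These depth and CLCA3A1 settings, the ratios between the suffixes under common tag cuts, and the first tag cuts under the stricter filter, were chosen after seeing the data.

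Tag cuts came next. Splitting both tags at the median gave ratios of 0.574 and 0.293, shares of 13.4% and 5.41% in the SLAM gate and 38.7% and 40.4% in the CD150-low CD48-high gate, and 7 members. Percentiles over both suffixes gave 0.265 and 0.217, shares of 0% and 1.95%, and 30.5% and 37.4%, and 30 members. The ratios of suffix 2 to suffix 1 were then 0.904 in the SLAM gate, 0.608 in CD150-low CD48-low, 0.914 in CD150-high CD48-high and 1.10 in CD150-low CD48-high cells, of which the last turned. The centred log ratio gave 0.661 and 0.205, a share of 15.3% in SLAM cells of suffix 1, and 1 member. Without a cell filter, suffix 2 had a ratio of 0.179 and a share of 0%. Thinned cells gave 0.478 and 0.222 and 25 members, and means over cells 0.458 and 0.222. At the 50th percentile as threshold the shares were 35.5% and 6.79% against 65.1% and 63.3%, and at the 90th 2.91% in SLAM cells of suffix 1 against 14.9% and 13.0%. At 3-fold, 11 members passed, against 3.26% of all genes. No paired analysis was possible because each age group is 1 library and no barcode suffix is paired with an age.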

Other observations

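Outside the replication genes, some stem cell genes and 3 of 5 inhibitors of cyclin-dependent kinases were lower in module-high cells in both suffixes. Procr, a stem cell surface receptor, was at 23.1 against 75.7 CPM in suffix 1 and at 26.8 against 142 CPM in suffix 2. Hlf, a stem cell transcription factor, was at 266 against 505 and at 117 against 285 CPM, and Ly6a at 150.1 against 293 and at 223 against 434 CPM. Cdkn1c was at 12.0 against 21.7 and at 7.98 against 44.7 CPM, and Cdkn1b, which encodes the inhibitor p27, at 27.0 against 46.3 and at 28.9 against 38.4 CPM. Cdkn2d was at 51.8 against 61.1 and at 49.2 against 58.7 CPM. The other 2 were higher instead, as Cdkn2c was at 35.9 against 23.5 and at 58.2 against 53.3 CPM. Cdkn1a, which encodes p21, and Cdk6, a G1 kinase, were also higher, at 8.34 against 4.14 and 19.0 against 8.83 CPM for Cdkn1a and at 355 against 264 and 495 against 329 CPM for Cdk6.

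The most negative correlations with the summed module over cells were those of Txnip (-0.539 and -0.686), an inhibitor of thioredoxin and of glucose uptake, and of the mitochondrial gene mt-Co1 (-0.486 and -0.525). Ribosomal protein genes such as Rps9 (-0.518 and -0.465) and Rpl17 (-0.463 and -0.484) and the nuclear RNA Malat1 (-0.428 and -0.549) were also among the lowest 10. These genes were picked after their values were seen, all values are relative to a cell's total UMIs, and module-high cells were deeper as given above.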
